A study of Saccharomyces cerevisiae with 15 samples.

Results

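The nuclear genes for the respiratory chain and the mitochondrial ATP synthase of budding yeast were followed as cells lost glucose, in mRNA and in ribosome footprints. The set comprised 34 of the 5703 genes analysed and was chosen by name: 9 genes of complex III, 7 of complex IV, 13 of the ATP synthase, 2 inhibitors of the ATP synthase and 3 NADH dehydrogenases. All 34 identifiers carried the matching names in the reference annotation, and all 34 passed the filter on low counts in each comparison. The strain was YWG25, in the Sigma1278b background, labelled wild type throughout, with no further allele given. Cells without glucose (-GLU) were set against cells with glucose (+GLU), and the labels give growth in YPD, a rich medium with glucose, for all of them. How long the -GLU cells were kept without glucose is not given in the sources used here. For each state there were 3 footprint and 3 RNA libraries from cells treated with cycloheximide, an inhibitor of elongation. There were also 3 single footprint libraries whose descriptions say that the drug was left out: -GLU and +GLU cells collected fast, by filtration and freezing, and -GLU cells collected without the word fast.

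Oxidative phosphorylation passes electrons from NADH and succinate to oxygen and uses the proton gradient this builds to make ATP. Budding yeast has no proton-pumping NADH dehydrogenase: single-protein enzymes, NDI1 on the inner face of the inner membrane and NDE1 and NDE2 on its outer face, hand electrons to ubiquinone. Complex III (ubiquinol to cytochrome c) and complex IV (cytochrome c to oxygen) pump protons, and the ATP synthase, a rotary enzyme with a catalytic F1 head, a central and a peripheral stalk and a membrane part, lets them flow back. Budding yeast ferments while glucose is plentiful and represses many of these genes, and the HAP complex, which binds DNA sites with the core CCAAT, is a known activator of them when glucose is scarce.

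The DNA upstream of these genes was searched for that core, and the windows here show the sites in members of the 3 complexes and of the NADH dehydrogenases. In the 300 bases before the annotated start codon, CCAAT on either strand was found in 29 of the 34 genes (85.3%), against 42.4% of the 5513 genes tested in RNA that have such a window. The longer form TNATTGGT, in which N is any base and whose last letters contain the core read on the other strand, was found in 15 of the 34 (44.1%) against 5.3% of all these genes, both strands searched. By kind, CCAAT stood before 13 of the 13 ATP synthase genes, 7 of 9 of complex III, 6 of 7 of complex IV, 1 of the 2 inhibitors (INH1) and 2 of the 3 NADH dehydrogenases. It was in the windows of neither COR1, CYT1, COX4, STF1 nor NDE2, which says only that these letters are not there. Of the 46 matches, 40 lay 120 to 300 bases before the start codon. Sequences are from the RefSeq R64 assembly of strain S288C, which is not the strain studied, and are read 5′ to 3′ on the strand that shows TNATTGGT, or its core ATTGG, which is in capitals:
RIP1, chrV:107001-107030, minus strand: gcgcaaaacgcTGATTGGTccgttatggag
QCR7, chrIV:1496712-1496741, plus strand: cgcgtcgctccTGATTGGTcaaaacaagat
COX6, chrVIII:209477-209506, plus strand: gaaaagggaccTAATTGGTccggtcaaagc
COX8, chrXII:910149-910178, plus strand: cttctctcgtaTGATTGGTgcaaaccgttt
ATP3, chrII:315368-315397, minus strand: ttactcgccgcTCATTGGTtctccatcacg
ATP4, chrXVI:408916-408945, plus strand: aaaaagcgtcgTGATTGGTtcaatattgat
NDI1, chrXIII:30017-30046, plus strand: atgccttcataTGATTGGTccgaatgaata
NDE1, chrXIII:556560-556589, plus strand: ttttctctcttTAATTGGTttaccagaata
ATP2, chrX:647410-647439, minus strand: caaaatttatccaATTGGcctgtcctggag
The first 8 are the first members, in list order, of complex III, complex IV, the ATP synthase and the NADH dehydrogenases with the longer form, and ATP2 is the ATP synthase gene with the largest RNA change. In these 8 windows the longer form began 103 (NDE1) to 248 (RIP1) bases before the start codon. NDE1 has another match of the longer form, not shown, which began 10 bases before the start codon. A match is a description of the sequence, and binding was not measured.

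Libraries held 10591879 to 12480932 counts for -GLU RNA and 2423486 to 12560502 for +GLU RNA, 2391712 to 7921427 for -GLU footprints and 4159880 to 8680468 for +GLU footprints. The -GLU RNA libraries were all selected for poly(A) on cellulose, as was +GLU RNA replicate 1, while +GLU RNA replicates 2 and 3 were selected on DynaBeads. The gene counts of replicates differed by more than sampling noise in every group. Together the 34 genes took 3.11, 2.92 and 3.37% of the counts in -GLU RNA libraries 1 to 3, against 0.494, 0.427 and 0.437% in the +GLU ones. In footprints they took 6.28, 6.45 and 5.83% in the -GLU libraries, against 0.715, 0.584 and 0.615% in the +GLU ones. All values are shares of a library, so a change in the mRNA or the number of ribosomes per cell, and a change in the share of cells that express a gene, cannot be told apart.

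All 34 genes were higher without glucose in RNA and in footprints. In edgeR's quasi-likelihood test with Benjamini-Hochberg adjustment over all genes, 34 of 34 were called higher in RNA, where 30.4% of all genes tested were, and 34 of 34 in footprints, where 33.8% were. For all 34, each -GLU library lay above each +GLU library in RNA, as for 34.5% of all genes, and in footprints, as for 36.7%. Without the drug, in the fast harvests, 34 of 34 were at least 2-fold higher in the -GLU library than in the +GLU library, against 31.9% of genes with enough counts, with 1 library on each side and no test. The median log2 change (-GLU over +GLU) of the 34 was 2.38 in RNA and 2.82 in footprints, beside 0.01 and 0.10 over all genes tested, and the median log2 ratio in the fast harvests, scaled by total counts, was 3.18, beside 0.32 over all genes. Scaling by total counts, without TMM factors, moved the all-gene median of the footprint changes to 0.55. The share of higher calls among all footprint calls was then 66.8% instead of 52.2%. Of all 5319 genes tested, 2416 were then called higher instead of 1798, and 34 of the 34 genes were called.

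**Figure D1:**
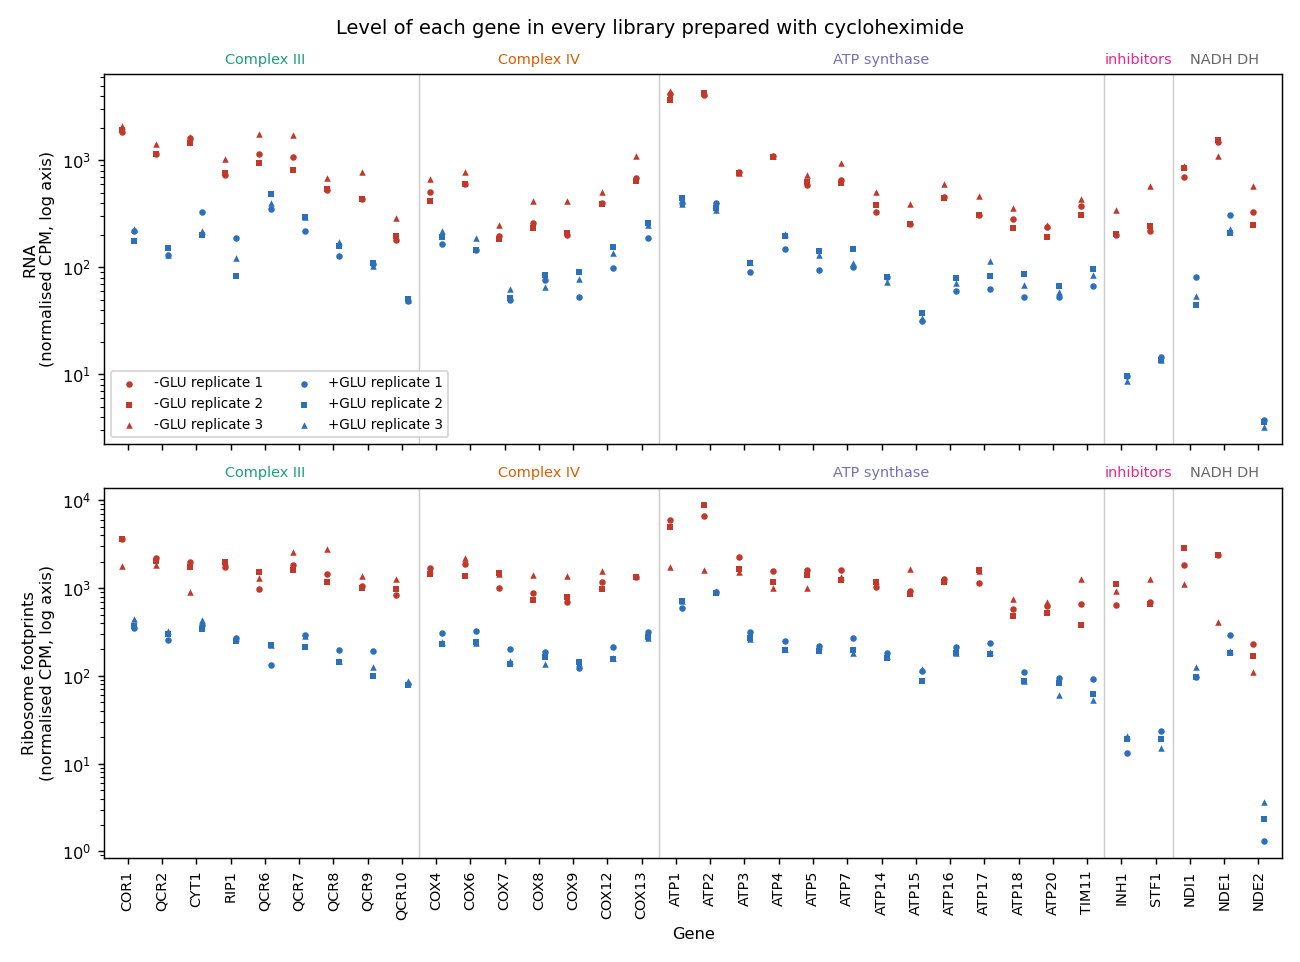
CPM (gene counts scaled to library size with TMM factors, log axis) of each of the 34 genes in the RNA libraries (upper panel) and the footprint libraries (lower panel); red points are -GLU libraries, blue points +GLU libraries, and the marker gives the replicate. No red point lies at or below a blue point of the same gene, and INH1, STF1 and NDE2 have the lowest +GLU levels.

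The kinds of gene had different median log2 changes, which were not tested against each other. In RNA it was 1.92 for the 7 complex IV genes, 2.37 for complex III, 2.57 for the ATP synthase, 3.75 for the NADH dehydrogenases and 4.67 for the inhibitors. In footprints the 3 large complexes lay closer together, at 2.75 for complex IV, 2.93 for complex III and 2.68 for the ATP synthase, while the NADH dehydrogenases stood at 4.17 and the inhibitors at 5.58. The fast harvests without drug, scaled by total counts, gave 3.17 for complex IV, 3.12 for complex III, 3.02 for the ATP synthase, 4.36 for the NADH dehydrogenases and 4.70 for the inhibitors. With drug and on that same scale the footprint medians were 3.19, 3.38, 3.11, 4.60 and 6.03 in the same order. Among the 29 subunits of the 3 complexes, the SD between genes of the log2 change was 0.54 in RNA, 0.35 in footprints and 0.27 in footprints without drug, so the subunits differed more from each other in RNA change than in footprint change. These spreads were not tested against each other.

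**Figure D2:**
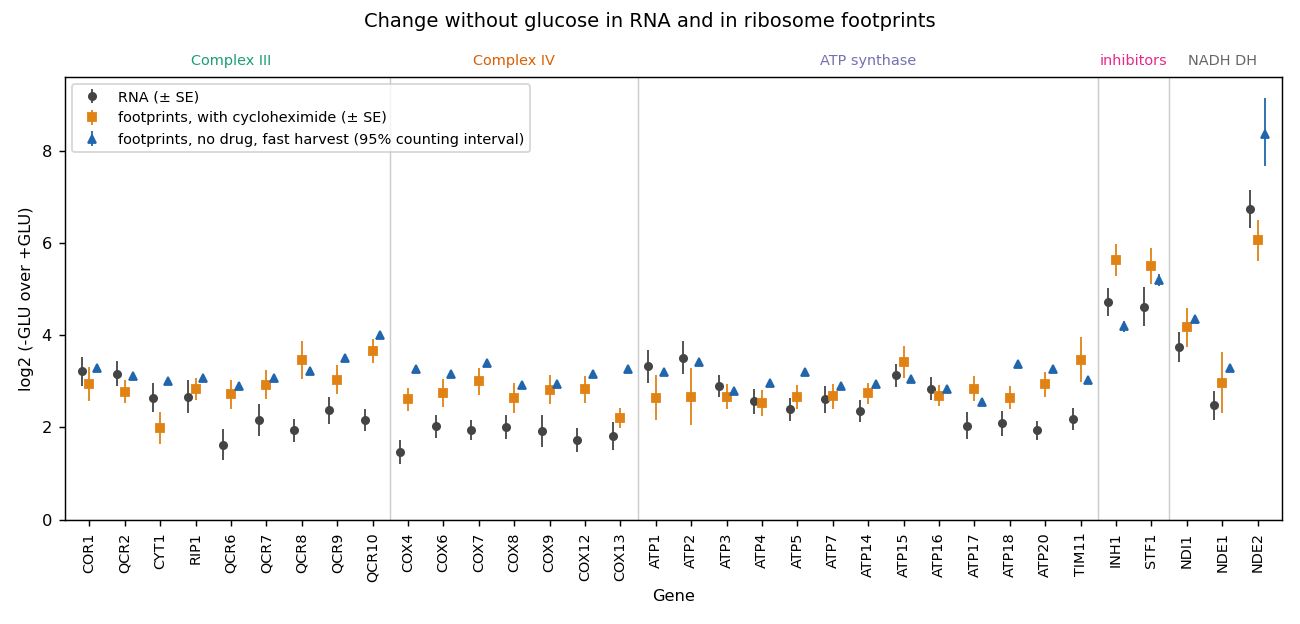
Log2 change (-GLU over +GLU) of each gene in RNA (circles, ± SE), in footprints with cycloheximide (squares, ± SE) and in the fast-harvest footprints without drug (triangles, scaled by total counts, 95% counting interval, 1 library on each side). Footprint values of the complex III, complex IV and ATP synthase subunits with the drug lie between 1.99 and 3.65, while RNA values run between 1.47 and 3.51.

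In complex III the larger subunits had a higher median RNA change than the small ones, and the footprint medians were closer. The 4 larger members, called the core here, COR1 and QCR2 (the core proteins), CYT1 (cytochrome c1) and RIP1 (the Rieske iron-sulfur protein), had a median RNA change of 2.92, and QCR6 to QCR10, small subunits around them, one of 2.17. The footprint medians were 2.81 for the core and 3.04 for QCR6 to QCR10. With the cellulose-selected RNA libraries alone, the RNA medians were 2.73 and 2.24, with overlapping ranges, and without -GLU RNA replicate 3 the medians were 2.85 and 1.83.

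COR1 (YBL045C) had 1840, 1920 and 2080 CPM in -GLU RNA libraries 1 to 3, against 221, 176 and 229 CPM in +GLU RNA. The groups were far apart, with a log2 change of 3.22 ± 0.31 (SE, adjusted p = 5.29e-05). Its footprints stood at 3630, 3600 and 1780 CPM in the -GLU libraries, against 353, 369 and 443 CPM in the +GLU ones, a change of 2.95 ± 0.37 (adjusted p = 0.000339). The third -GLU library was the low one, yet well above all +GLU libraries. CYT1 (YOR065W) had 1630, 1440 and 1660 CPM in -GLU RNA, against 329, 203 and 221 CPM in +GLU RNA, and 1970, 1730 and 911 CPM in -GLU footprints, against 376, 346 and 436 CPM in +GLU footprints. Its footprint change of 1.99 ± 0.34 (adjusted p = 0.00154) was the smallest of the 34, and the third -GLU library was again low.

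QCR6 (YFR033C), the acidic hinge protein, had the smallest RNA change of the complex, 1.63 ± 0.33 (adjusted p = 0.00236), from 1150, 940 and 1750 CPM in -GLU RNA, against 350, 484 and 403 CPM in +GLU RNA. The -GLU libraries lay above the +GLU ones, but this RNA call was lost with cellulose-selected libraries alone, where the change was 1.91 (adjusted p = 0.0621). Its footprints were 978, 1530 and 1300 CPM in -GLU cells, against 133, 222 and 224 CPM in +GLU cells. QCR8 (YJL166W) had 526, 546 and 688 CPM in -GLU RNA, against 129, 159 and 172 CPM in +GLU RNA. Its footprints were 1430, 1180 and 2790 CPM in the -GLU libraries, against 196, 144 and 147 CPM in the +GLU libraries, so the third -GLU library was the highest here. Its footprint change was 3.47 ± 0.41 (adjusted p = 0.000251), or 3.01 without that library, and its RNA change 1.94 ± 0.25 (adjusted p = 0.000201). QCR10 (YHR001W-A) had 181, 195 and 291 CPM in -GLU RNA, against 48.2, 50.5 and 49.8 CPM in +GLU RNA, and 846, 990 and 1260 CPM in -GLU footprints, against 80.3, 78.9 and 87.8 CPM in +GLU footprints. The footprint change of QCR10, 3.65 ± 0.26 (adjusted p = 3.4e-05), was the largest among the subunits of the 3 complexes.

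Complex IV, in which these genes encode the small subunits around a mitochondrially encoded core, was the most even of the 3 complexes in RNA, with log2 changes from 1.47 to 2.03. The SD between its genes was 0.20. Parts of the other complexes were nearly as even, with 0.28 in QCR6 to QCR10 and 0.25 in the peripheral stalk and membrane part of the ATP synthase. COX6 (YHR051W) had the largest RNA change of complex IV, 2.03 ± 0.25 (adjusted p = 0.000175). It had 604, 604 and 772 CPM in -GLU RNA, against 147, 147 and 190 CPM in +GLU RNA. COX6 footprints stood at 1900, 1370 and 2180 CPM in -GLU cells, against 328, 243 and 240 CPM in +GLU cells. COX4 (YGL187C) had the smallest RNA change of all 34 genes, 1.47 ± 0.26 (adjusted p = 0.00119), with 509, 420 and 667 CPM in -GLU RNA, against 165, 192 and 219 CPM in +GLU RNA. COX4 footprints were 1680, 1460 and 1620 CPM in -GLU cells, against 307, 230 and 242 CPM in +GLU cells, so both groups were tight and did not overlap. COX13 (YGL191W) had 688, 648 and 1090 CPM in -GLU RNA, against 188, 259 and 247 CPM in +GLU RNA, and 1330, 1340 and 1370 CPM in -GLU footprints, against 318, 281 and 273 CPM in +GLU footprints. Its footprint change, 2.21 ± 0.22 (adjusted p = 0.000124), was the smallest of complex IV, where the other 6 genes had 2.61 to 3.00.

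The ATP synthase divided by position in RNA. The 5 subunits of the head and central stalk (ATP1, ATP2, ATP3, ATP15 and ATP16) had a median RNA change of 3.13 and the 8 of the peripheral stalk and membrane part 2.27, and with cellulose-selected libraries alone 3.27 and 2.53. The footprint medians of these groups were 2.67 and 2.71, or 3.01 and 2.74 without -GLU footprint replicate 3. ATP2 (YJR121W), the catalytic beta subunit, had 4100, 4230 and 4260 CPM in -GLU RNA, against 401, 359 and 347 CPM in +GLU RNA, a change of 3.51 ± 0.36 (adjusted p = 7.68e-05). The ATP2 footprints were 6720, 8950 and 1610 CPM in the -GLU libraries, against 905, 888 and 921 CPM in the +GLU libraries, a change of 2.67 ± 0.61 (adjusted p = 0.00608). The +GLU libraries were alike, and the third -GLU library held less than the other 2 by a log2 difference of -2.27. Without it the footprint change of ATP2 was 3.11. ATP1 had the same pattern, with 5910, 4960 and 1760 CPM in -GLU footprints, against 595, 711 and 710 CPM in +GLU footprints. The ratio of ATP1, the alpha subunit, to ATP2 in counts per kilobase was 0.958, 0.818 and 0.979 in -GLU RNA, against 0.928, 1.16 and 1.05 in +GLU RNA, and the groups overlapped.

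ATP20 (YPR020W) and TIM11 (YDR322C-A), membrane subunits known for their part in pairing ATP synthases, had small RNA and larger footprint changes. ATP20 had 239, 192 and 247 CPM in -GLU RNA, against 52.6, 66.6 and 58.5 CPM in +GLU RNA, and 622, 520 and 693 CPM in -GLU footprints, against 95.4, 84.0 and 60.0 CPM in +GLU footprints. TIM11 had 372, 312 and 439 CPM in -GLU RNA, against 67.1, 95.7 and 85.4 CPM in +GLU RNA. Its footprints were 657, 378 and 1270 CPM in the -GLU libraries, against 91.4, 62.5 and 53.6 CPM in the +GLU libraries, the third -GLU library being the highest. The RNA changes were 1.94 ± 0.21 for ATP20 and 2.18 ± 0.24 for TIM11 (adjusted p = 9.22e-05 and 0.000104), and the footprint changes 2.94 ± 0.27 and 3.47 ± 0.49 (adjusted p = 8.56e-05 and 0.000615).

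INH1 and STF1, which block ATP hydrolysis when the enzyme would run backwards, stood far above the subunits in change. INH1 (YDL181W) had 199, 205 and 344 CPM in -GLU RNA, against 9.77, 9.69 and 8.68 CPM in +GLU RNA, a 26.4-fold difference (log2 4.72 ± 0.30, adjusted p = 8.26e-06). INH1 footprints were 641, 1110 and 926 CPM in -GLU cells, against 13.2, 19.2 and 20.9 CPM in +GLU cells, or 49.9-fold (log2 5.64 ± 0.35, adjusted p = 2.48e-05). STF1 (YDL130W-A) had 221, 242 and 575 CPM in -GLU RNA, against 14.5, 13.7 and 13.7 CPM in +GLU RNA, or 24.7-fold (log2 4.62 ± 0.42, adjusted p = 4.51e-05). STF1 footprints were 699, 660 and 1260 CPM in -GLU cells, against 23.5, 18.9 and 15.1 CPM in +GLU cells, or 45.6-fold (log2 5.51 ± 0.39, adjusted p = 3.42e-05). The ratio of the inhibitors to each other overlapped between the states in both assays with the drug. INH1 over STF1 in counts per kilobase was 0.913, 0.856 and 0.605 in -GLU RNA, against 0.683, 0.715 and 0.641 in +GLU RNA. In footprints it was 0.928, 1.7 and 0.744 in -GLU cells, against 0.569, 1.03 and 1.4 in +GLU cells. In the fast harvests without drug the log2 ratios of -GLU to +GLU were 4.20 (95% interval 4.08 to 4.32) for INH1 and 5.20 (5.07 to 5.33) for STF1. There INH1 rose less than STF1, with 1 library on each side and no test.

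Levels per length of the inhibitors and the subunits lay closer together without glucose. These are deposited RPKM, counts scaled by library size and by the length of the region counted, which was not the same in all libraries. The median of the 2 inhibitors was 1240 in -GLU RNA and 45.5 in +GLU RNA, beside 1420 in -GLU RNA and 223 in +GLU RNA for the 13 ATP synthase subunits. In footprints the inhibitors had 4210 in -GLU cells and 67.3 in +GLU cells, beside 3200 in -GLU cells and 361 in +GLU cells for the subunits. The inhibitors' median was thus below that of the subunits in RNA in both states, and in footprints above it in -GLU cells and below it in +GLU cells.

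The NADH dehydrogenases were the most uneven group. NDE2 (YDL085W) had 331, 251 and 576 CPM in -GLU RNA, against 3.75, 3.63 and 3.20 CPM in +GLU RNA, the largest change of the 34, 107-fold (log2 6.74 ± 0.41, adjusted p = 7.14e-06). Its footprints were 228, 167 and 112 CPM in -GLU cells, against 1.32, 2.34 and 3.69 CPM in +GLU cells, or 66.5-fold (log2 6.06 ± 0.44, adjusted p = 3.66e-05). The +GLU values rest on few reads: a count of 3 corresponds to 0.346 to 0.721 CPM in these footprint libraries, and the +GLU library without drug held 17 NDE2 counts. NDI1 (YML120C) had 698, 848 and 884 CPM in -GLU RNA, against 80.6, 44.4 and 54.3 CPM in +GLU RNA, and 1840, 2850 and 1100 CPM in -GLU footprints, against 97.7, 98.3 and 125 CPM in +GLU footprints. Its changes were 3.75 ± 0.32 in RNA and 4.17 ± 0.42 in footprints (adjusted p = 3.08e-05 and 0.000127). NDE1 (YMR145C) changed less, with 1500, 1560 and 1110 CPM in -GLU RNA, against 309, 210 and 227 CPM in +GLU RNA. The NDE1 footprints were 2390, 2400 and 406 CPM in the -GLU libraries, against 292, 182 and 191 CPM in the +GLU libraries, the third -GLU library holding the fewest. The changes of NDE1 were 2.48 ± 0.31 in RNA and 2.97 ± 0.66 in footprints (adjusted p = 0.000189 and 0.00533), and without the third -GLU footprint library its footprint change was 3.43.

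The ratios between the NADH enzymes did not overlap between the states, in a design too small to pass a test. NDE1 over NDI1 in RNA, in counts per kilobase, was 1.97, 1.68 and 1.15 in the -GLU libraries, against 3.51, 4.33 and 3.81 in the +GLU libraries, and in footprints 1.19, 0.772 and 0.339 in -GLU cells, against 2.74, 1.69 and 1.40 in +GLU cells. NDE2 over NDE1 in RNA was 0.226, 0.166 and 0.535 in the -GLU libraries, against 0.0125, 0.0178 and 0.0145 in the +GLU libraries, and in footprints 0.0979, 0.0713 and 0.282 in -GLU cells, against 0.00464, 0.0133 and 0.0199 in +GLU cells. In both ratios and both assays the groups did not overlap, each with an exact two-sided permutation p of 0.1, the smallest that 3 against 3 libraries allow (adjusted p = 0.2 over 8 tests). With and without glucose, NDE2 stayed below NDE1 in all 12 libraries.

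Footprint change minus RNA change, tested as the interaction of assay and glucose over 12 libraries and called here the efficiency change, separated 4 genes. QCR8 (1.60 ± 0.46, adjusted p = 0.0401), QCR10 (1.54 ± 0.35, adjusted p = 0.0146), COX4 (1.20 ± 0.36, adjusted p = 0.0447) and ATP20 (1.06 ± 0.33, adjusted p = 0.0495) were called higher, and none of the 34 lower by edgeR's quasi-likelihood test. This is 4 of 34, beside 9.24% of all genes tested. The class medians were 0.74 in complex III, 0.96 in complex IV, 0.33 in the ATP synthase, 0.96 in the inhibitors and 0.47 in the NADH dehydrogenases. The median of the 34 was 0.58, beside 0.13 over all genes. The lowest values were -0.79 ± 0.66 for ATP2 and -0.63 ± 0.55 for ATP1 (adjusted p = 0.44 and 0.46). The number of calls moved with the fit. With a block that ties the RNA and footprint libraries of 1 number within each state, chosen after seeing the data, it was 10, adding QCR6, COX7, COX9, COX12, TIM11 and STF1. Without any 1 library the calls numbered 0 to 3, with 0 when +GLU RNA 2, +GLU footprint 2, -GLU RNA 1 or -GLU RNA 2 was left out, and 1 when +GLU RNA 1, +GLU RNA 3, +GLU footprint 1 or +GLU footprint 3 was. Without replicate 3 of both -GLU groups there were 10, and with cellulose-selected RNA alone, which leaves 1 +GLU RNA library, 0. They numbered 1 with RLE scaling, where 379 of the 5509 genes tested were called higher, and 8 with total counts, where 769 were. In the main fit 509 of the 5509 were. The all-gene counts for the fits with 10 calls are not given here. Over all genes, higher calls made up 67.3% of efficiency calls, against 53.8% with RLE scaling, 51.6% with DESeq2 and 84.9% with total counts, and the all-gene median moved to 0.36 with total counts.

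The efficiency change followed the length of the coding sequence. Across the 29 subunits of the 3 complexes Spearman's rho with coding length was -0.73, and across all 5503 genes tested with a known length it was -0.38; genes of 1 library share its depth and composition, so these are descriptions. For the 10 subunits of up to 300 nt the median efficiency change was 1.04, beside 1.03 for the 227 genes of that length. It was 0.81 for the 10 longer than that and up to 600 nt, beside 0.62 for 718 genes, and -0.22 for the 9 over 600 nt, beside 0.03 for 4558 genes. The median of the shortest subunits was close to that of all genes of their length. RNA and footprints differed in this: rho with length was 0.61 for the RNA changes of the 29 subunits, -0.46 for their footprint changes and -0.13 for the fast-harvest footprint ratios without drug. With cellulose-selected RNA alone, rho was 0.45 in RNA and -0.67 in efficiency.

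**Figure D3:**
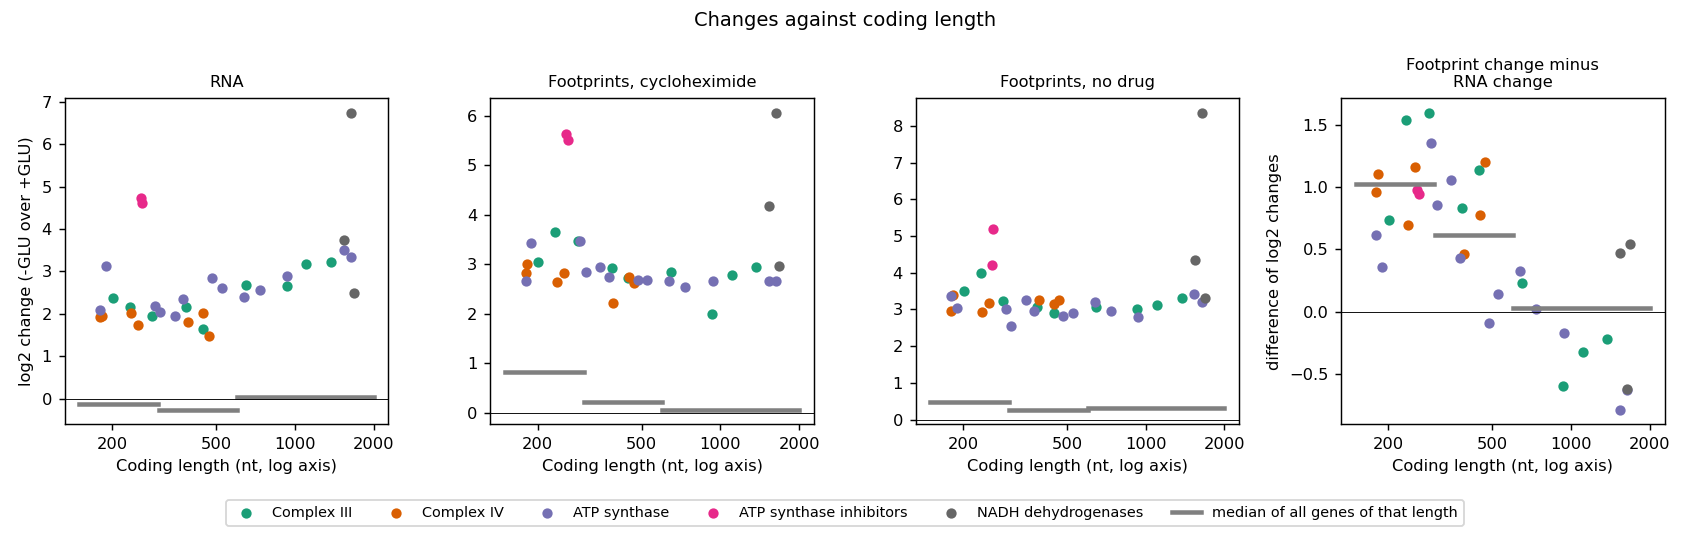
Log2 change of the 34 genes (-GLU over +GLU) in RNA, in footprints with cycloheximide and in footprints without drug, and the footprint change minus the RNA change, against coding length (log axis); colours give the kind of gene and grey bars the median of all genes in 3 length ranges. The efficiency changes fall with length, from a median of 1.04 for the subunits up to 300 nt to -0.22 for those over 600 nt, near the grey bars of 1.03 and 0.03.

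Replicate 3 of both -GLU groups stood apart in a way that moved with length. In footprints, -GLU replicate 3 over the mean of replicates 1 and 2 had a rho of -0.87 with coding length across the 34 genes, and -0.22 across 5314 genes. NDE1 and ATP2 were lowest there, with log2 differences of -2.56 and -2.27, and TIM11 and QCR8 highest, with 1.35 and 1.10. In RNA, -GLU replicate 3 was above both other replicates for 32 of the 34 genes, with a median log2 difference of 0.44. The same count over all genes is not given here. In RNA rho with coding length was -0.60 across the 34 genes and -0.27 across 5509 genes. Both of these libraries, like +GLU RNA replicate 1, were counted over a region 26 nt longer than in the other 12 libraries. Without -GLU footprint replicate 3, all 34 genes were still called higher in footprints, and rho between footprint change and length was 0.12 for the 29 subunits, with the opposite sign. The part of the counted region in these values was tested only as an offset, with which rho of the efficiency changes was -0.71.

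**Figure D4:**
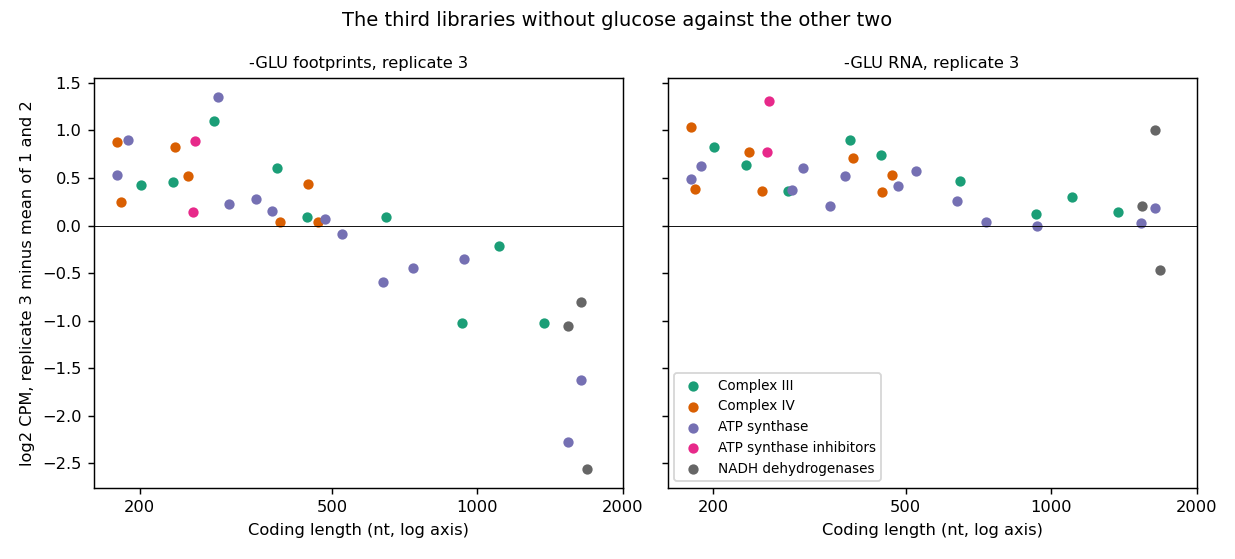
Log2 CPM of -GLU replicate 3 minus the mean of -GLU replicates 1 and 2 for each of the 34 genes, against coding length (log axis), in footprints (left) and RNA (right); colours give the kind of gene. In footprints the values run from 1.35 (TIM11) among the short genes to -2.56 (NDE1) among the long ones.

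The footprint-to-RNA ratio itself was taken from deposited RPKM. Its median over the 29 subunits was 2.52 in -GLU cells and 1.56 in +GLU cells, beside 0.699 in -GLU cells and 0.558 in +GLU cells over 5498 genes. The ratio was below the all-gene median for NDE2 in -GLU cells, at 0.488, and for QCR6 in +GLU cells, at 0.431. Complex IV had the highest median of the 3 complexes without glucose, 3.33, against 1.55 with glucose, and COX7 the highest single ratio in -GLU cells, 6.92. In complex III the core had 1.75 in -GLU cells and 1.74 in +GLU cells, and QCR6 to QCR10 had 2.35 in -GLU cells and 0.998 in +GLU cells. The spread of RNA levels within complex III was narrower without glucose: the highest over the lowest RPKM of its 9 genes was 3.46, 2.61 and 3.66 in -GLU RNA libraries, against 6.67, 8.85 and 7.96 in +GLU RNA libraries. QCR6 was the highest in each of the +GLU RNA libraries. In footprints the ranges overlapped, with 2.89, 3.00 and 9.95 in -GLU libraries and 4.48, 2.16 and 2.61 in +GLU libraries. The ATP synthase values for RNA overlapped too, with 3.67, 4.71 and 3.92 in -GLU RNA and 3.00, 4.72 and 3.54 in +GLU RNA.

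The 2 -GLU libraries made without the drug were also compared. The library without the word fast in its title was set against the fast harvest, with 1 library on each side and no test. In it 5 of the 34 genes were at least 2-fold lower, ATP17, TIM11, QCR9, ATP15 and ATP16, where 12.9% of all genes were, so the share of members was near that of all genes. These 5 have coding lengths of 189 to 483 nt. Over 5200 genes, rho of this harvest ratio with coding length was 0.56, and over the 34 it was 0.46, so shorter genes tended to be lower. The part of length in the ratios of single genes was not tested. ATP16, at -1.06, lay just past that bound, and ATP5, at -0.99, just short of it. ATP17, a membrane subunit, had 222 CPM in that library and 689 CPM in the fast one, a log2 ratio of -1.63 (95% interval -1.79 to -1.48). NDE1 and NDI1 lay on the other side, with log2 ratios of 0.96 (0.92 to 1.01) and 0.85 (0.80 to 0.89). The intervals cover counting error only. The fast-harvest ratios between states, in which all 34 genes were higher without glucose, do not use it.

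**Figure D5:**
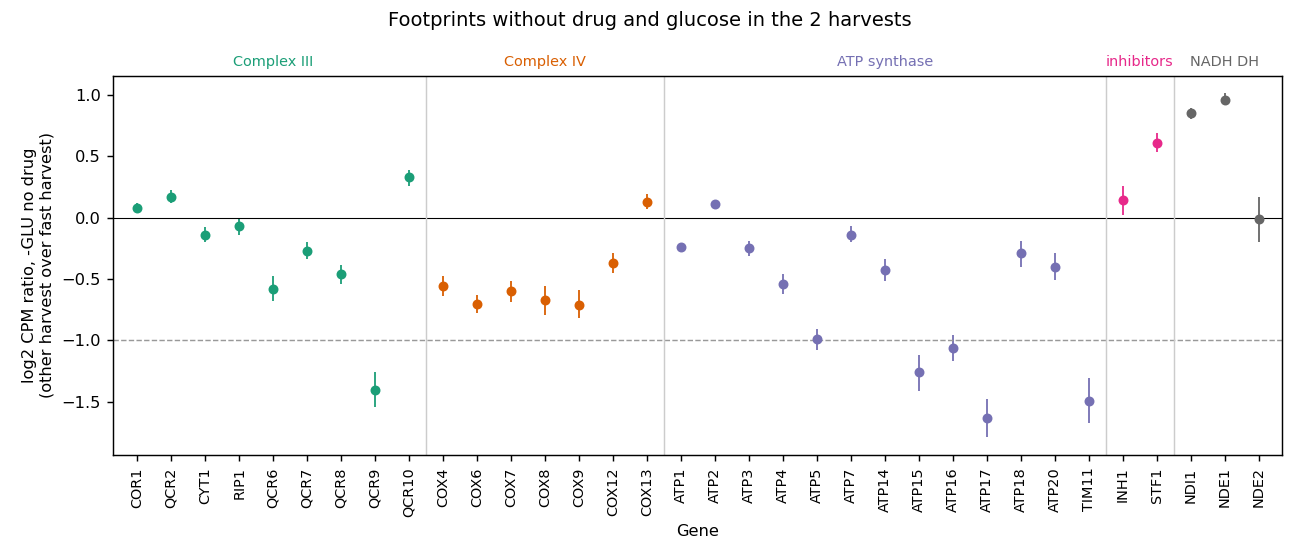
Log2 ratio of CPM for each gene between the 2 -GLU footprint libraries prepared without cycloheximide, the other harvest over the fast harvest, with 95% counting intervals; 1 library on each side, and the dashed line marks 2-fold lower. The 5 genes below the line are QCR9, ATP15, ATP16, ATP17 and TIM11, and NDI1 and NDE1 lie highest.

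Genes that work with these complexes mostly moved the same way. All 4 subunits of complex II (succinate dehydrogenase) were called higher in RNA, SDH1 by 4.95 ± 0.36, SDH2 by 4.79 ± 0.32, SDH4 by 4.69 ± 0.30 and SDH3 by 3.80 ± 0.28 (log2), and all 4 in footprints, with medians of 4.74 and 4.32 that are above those of complexes III and IV and the ATP synthase. HAP4, the regulated subunit of the HAP activator, had an RNA change of 4.68 ± 0.33 (adjusted p = 1.2e-05), while HAP2 and HAP5 had 1.46 and 1.44 and HAP3, not called in RNA, 0.06 (adjusted p = 0.861). In footprints all 4 HAP genes were called higher, where 33.8% of all genes tested were. The footprint change of HAP3 was 1.07 ± 0.20 (adjusted p = 0.00239 in edgeR's quasi-likelihood test). Of the proteins that carry electrons or differ by isoform, CYC1 (cytochrome c) and COX5A changed by 0.99 ± 0.26 and 1.49 ± 0.28 in RNA, less than most of the 34. Their isoforms CYC7 and COX5B, better known from low oxygen, gave RNA values of 1.49 ± 0.60 (adjusted p = 0.0543) and 1.58 ± 0.61 (adjusted p = 0.0467). The -GLU RNA libraries were far apart for both, with means of 166 CPM (SD 151) and 73.6 CPM (SD 64.1). Footprint changes were 4.11 ± 0.82 for CYC7 and 2.79 ± 1.08 for COX5B (adjusted p = 0.00319 and 0.0536, edgeR's quasi-likelihood test). The -GLU footprint means were 605 CPM (SD 612) and 47.6 CPM (SD 51.4). Among 7 carriers and porins, 4 rose and 2 fell in RNA. PET9, the main ADP/ATP carrier, and MIR1, the phosphate carrier, rose by 2.89 ± 0.34 and 3.20 ± 0.30, and AAC3, the ADP/ATP carrier of anaerobic cells, fell by 5.45 on the log2 scale (SE 0.31, adjusted p = 6.42e-06).

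Assembly factors had smaller median RNA changes than the subunits they serve. Of 7 complex III assembly genes 7 were called higher in RNA with a median of 1.18, of 21 complex IV assembly and copper genes 20 with 1.28, and of 7 ATP synthase assembly genes and partners 6 with 1.01, beside 2.37, 1.92 and 2.57 for the subunits. The difference between these lists was not tested. Within the complex IV list, COX23 had the largest RNA change (2.41 ± 0.24) and PET117 the smallest (0.49 ± 0.32, adjusted p = 0.211), while the footprint change of PET117 was 2.16 ± 0.27. In footprints 7, 20 and 7 of them were called, with medians of 2.76, 2.16 and 2.17. In efficiency 3 of 7, 7 of 21 and 5 of 7 were called higher and none lower, beside 9.24% higher over all genes. Efficiency changes fell with coding length over all genes (rho -0.38), and the part of length in these shares was not tested. STF2, described as a partner of INH1 and STF1 on the ATP synthase, had a footprint change of 6.38 ± 0.72 and an RNA change of 3.12 ± 0.59. Its -GLU libraries were far apart, with a mean of 577 CPM (SD 518) in RNA and 1460 CPM (SD 1290) in footprints. Of 12 genes for proteins that act on mitochondrial mRNAs, 8 were called higher in RNA and 11 in footprints, with medians of 0.90 and 1.58; PET494 (2.66 ± 0.25 in RNA) and CBP1 (0.01 ± 0.20) were at the ends. Of 10 ubiquinone synthesis genes, 6 were called in RNA and 6 in footprints, with medians of 1.10 and 0.77. Of 4 further subunits and supercomplex factors, ATP19, COX26 and RCF1 were called higher in both assays, and RCF2 had RNA and footprint values of -0.58 and -0.67 (adjusted p = 0.147 and 0.0705). The 7 mitochondrially encoded subunits were not analysed here.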

How the data were processed

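Ribosome footprints and poly(A) RNA were sequenced by the authors from 15 libraries, grouped here by their titles. The authors deposited raw counts per gene and RPKM values. The deposited columns of -GLU RNA replicates 1 and 2 are called expected counts because 1 entry, YPR203W, is not whole; that row was left out of all libraries and nothing was rounded, so 5703 of 5704 genes were analysed. Which aligner and genome build were used, and whether strand was, is not stated in any source used here. Counts divided by the deposited RPKM gave a counted length of the coding sequence less 24 nt in 12 libraries (within 0.5 nt for 93.1% of genes) and 26 nt more in +GLU RNA 1, -GLU RNA 3 and -GLU footprint 3. The treatment text in the labels names cycloheximide for all libraries, while the descriptions of 3 say that it was left out. Per the labels, rRNA was subtracted from all libraries except +GLU RNA 3 and the 3 -GLU RNA libraries. In RNA, subtraction thus differed between the states, and its part in the RNA and efficiency changes was not tested. With cellulose-selected RNA only, the +GLU RNA library was subtracted and the -GLU ones were not, so subtraction and glucose cannot be told apart there.

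Changes were tested on the counts with edgeR 4.0.16 in R 4.3.3 (quasi-likelihood F test, TMM factors, filterByExpr with a minimum count of 10, Benjamini-Hochberg adjustment over all genes, threshold 0.05), with only the libraries compared in each fit, and the interaction of assay and glucose over 12 libraries. The SE is the size of the change divided by the square root of F. CPM values use TMM factors within an assay, and those of single libraries total counts. Single libraries were compared by the ratio of CPM with exact 95% intervals, which cover counting error only, as does the floor of 3 counts, since reads carry no molecular identifiers; the background over all genes needs 20 counts. The edgeR fit was tested on simulated data. Whether replicates are separate cultures is not in the labels, and the p-values reflect only how far these libraries spread, which may be technical. Names, coding lengths and sequences came from RefSeq R64, which names 5688 of the identifiers and leaves 15 unmatched; no coding sequence of the 34 genes overlaps another in it. Genes with values in every library were those with the highest and lowest RNA or efficiency change in each complex, those called in efficiency, and all inhibitors and NADH dehydrogenases. ATP1, ATP17 and COX7 were added after their values were seen. Members, lists, motifs and alternatives were chosen with earlier results of these data known. Alternatives were other scalings, no filter, DESeq2 1.42.0, an offset for counted length, the replicate number as a term, cellulose-selected RNA only, and each library left out.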

Additional observations from a re-analysis of the deposited data

Results flagged for a closer look

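Of the 34 genes, 4 had a footprint change that differed from the RNA change in the test of that difference, the interaction of assay and glucose: QCR8 by 1.60, QCR10 by 1.54, COX4 by 1.20 and ATP20 by 1.06 on the log2 scale. This is 4 of 34, beside 9.24% of all genes tested, a similar share. Each footprint change exceeded the RNA change. Over 21 alternatives QCR10 was called in 16, QCR8 in 11, COX4 in 9 and ATP20 in 4, and the differences stayed above 0 in all of them. The 4 genes have coding lengths of 234 nt (QCR10), 285 nt (QCR8), 348 nt (ATP20) and 468 nt (COX4), and the efficiency changes of all genes moved with length. The part of length in these 4 values was not tested.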

How the results depend on the processing

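Under every alternative run, 34 genes were called higher in footprints, and 34 in RNA except with cellulose-selected RNA alone (33). The 4 efficiency calls, beside 509 of all 5509 genes tested, became 1 with RLE scaling, beside 379, and 8 with total counts, beside 769. They became 10 without replicate 3 of both -GLU groups, and ranged from 0 to 3 without 1 library. The cause was not tested. Equal replicate numbers did not deviate together (correlations -0.168 to 0.067 between states), so they do not pair libraries: with the replicate block 34 genes were called in RNA, 34 in footprints and 3 in efficiency. RNA and footprint libraries of 1 number did deviate together in -GLU cells (0.348 to 0.623), and less in +GLU cells (0.093 to 0.206). A replicate block within each state, added after the data were seen, gave 10 efficiency calls. Median footprint changes with total counts were 3.38 in complex III, 3.19 in complex IV, 3.11 in the ATP synthase and 6.03 in the inhibitors, and without 1 library 2.75 to 2.90 in complex III. With cellulose-selected RNA the ATP synthase medians were 2.90 in RNA and -0.25 in efficiency, and the complex IV efficiency median 0.49. Small efficiency values changed sign: COR1 to 0.02 with total counts, 0.04 without -GLU footprint 3 and 0.09 without replicate 3 of both -GLU groups, COX13 to -0.05 with cellulose-selected RNA, and NDI1 to -0.02 without +GLU RNA 1. Without 1 library COR1 ranged from -0.48 to 0.04 and NDI1 from -0.02 to 0.75. The ATP synthase footprint-to-RNA ratio without glucose was 2.57 without replicate 3. At 1.5-fold 10 genes, not 5, were lower in the other harvest than in the fast one. The share of all genes lower at 1.5-fold is not given here, and at 2-fold it was 12.9%. The lone +GLU RNA library in the cellulose fit is assumed to vary like the other groups.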
